A study of Mus musculus with 9 samples.

Results

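The ribosomal protein genes were described across the cell types of mouse embryonic fibroblast (MEF) cultures undergoing conversion into induced neurons (iNs). Members were the gene symbols of the standard Rpl and Rps nomenclature, with Rplp0, Rplp1, Rplp2 and Rpsa, without pseudogene symbols, and with at least 50 UMI (unique molecular identifiers, each standing for 1 captured mRNA molecule) over all libraries. Of 84 matching symbols 83 were kept, out of 30406 gene identifiers shared by the feature tables. They comprised 77 core genes, of which 43 encode large-subunit proteins, 31 encode small-subunit proteins and 3 encode the P-stalk proteins Rplp0, Rplp1 and Rplp2. The other 6 members were the paralogs Rpl3l, Rpl7l1, Rpl22l1, Rpl36al, Rpl39l and Rps27l. Rpl10l, the symbol that was not kept, had 0 UMI.

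Ribosomal proteins and ribosomal RNA form the small subunit, which decodes the mRNA, and the large subunit, which joins amino acids. Their mRNAs are among the most abundant in growing cells, and many begin with a cytosine followed by a run of pyrimidines, the 5′ terminal oligopyrimidine (TOP) sequence, through which mTORC1 signalling controls their translation. A paralog is a related gene copy, and some can supply the same position of the ribosome, as Rpl39l can for Rpl39.

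The study asked how the circadian regulators PER1 and PER2 bear on iN reprogramming. Libraries of 9 groups, 1 library each, were measured with 10x Genomics 3′ single-cell RNA-seq, from WT, Per1-/- and Per2-/- cultures on days 4, 7 and 10. The mutant mice carried the alleles Per1tm1Drw and Per2tm1Drw, and all cultures, WT included, had been transduced with lentiviruses for the reprogramming factors, among them Brn2 (also called Pou3f2) and Myt1l, under Tet-O control and received doxycycline. MEFs came from embryos without head and heart, embryos were pooled in a dish, and the source embryos and their sex were not given for a library. Since each genotype and day had 1 library, p-values below measure the spread between libraries across genotypes or days.

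The libraries held 6885 to 13309 barcodes and 126625215 to 353198559 UMI in all. WT day 10 stood apart, with 3528 UMI in its median barcode, and 55.05% of its barcodes within the limits on depth and mitochondrial share, against 86.08% to 94.48% elsewhere. Any 2 libraries shared 0.189% to 2.886% of the barcodes of the smaller library, at most 365 barcodes. CPM is the UMI of a gene divided by the total UMI of the cells counted, scaled to 1e6. For Per1 and Per2 these were the cells kept from a library, and below they were the cells of a class or cluster. The 3′ UMI of Per1 lay between 9.17 and 10.3 CPM in the Per1-/- libraries and between 6.34 and 7.95 in WT. Those of Per2 lay between 4.97 and 6.4 CPM in Per2-/- and between 2.58 and 3.02 in WT. Such tags need not come from the altered part of a gene and were no check of the genotype labels. The 81943 cells within the limits formed 26 clusters, built without the ribosomal protein genes. After clustering, cells scored as doublets were left out, and 74785 cells were kept. There were 7 classes, 60504 cells in all, named from fixed markers, and 14281 cells stayed unnamed. Col1a1, a collagen, was at 6614 CPM in the 34646 fibroblast-like cells, 244 in the 10304 neuron-like cells and 92.9 in the 6448 macrophage-like cells. Tubb3, encoding βIII tubulin, was at 1162 CPM in neuron-like and 12.5 in fibroblast-like cells, and Csf1r, the receptor of a macrophage growth factor, at 683 CPM in macrophage-like and 1.93 in fibroblast-like cells.

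Rpl39 and its paralog Rpl39l are shown because Rpl39l is described by class, cluster and genotype in the results that follow. Both coding sequences (GENCODE on GRCm38) are 156 bases long, with 133 identical and 23 differing bases, an identity of 85.3%. Rpl39 lies at chrX:37082701-37085127 on the minus strand with 3 coding exons, and Rpl39l at chr16:10174310-10174465 on the plus strand with 1 coding exon. Capitals mark the bases that differ.
Rpl39: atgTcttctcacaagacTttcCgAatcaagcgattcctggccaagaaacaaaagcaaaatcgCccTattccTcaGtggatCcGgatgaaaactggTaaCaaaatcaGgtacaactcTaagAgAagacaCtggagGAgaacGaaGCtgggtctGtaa
Rpl39l: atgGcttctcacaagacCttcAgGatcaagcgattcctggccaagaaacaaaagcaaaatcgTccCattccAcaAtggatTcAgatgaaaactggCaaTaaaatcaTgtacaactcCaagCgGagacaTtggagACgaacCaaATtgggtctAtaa
Of the other pairs, Rpl36al and Rpl36a were identical at 87.9% of aligned coding bases, Rps27l and Rps27 at 76.1%, Rpl22l1 and Rpl22 at 66.9%, and Rpl7l1 and Rpl7 at 50.3%.

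The bases around the start of transcription are shown for members at either end of the order of neuron-like differences given later, and for a pair of paralogs. Each window runs from 10 bases before to 20 bases from the RefSeq start (GRCm38.p6), written on the strand of the gene, with the longest run of C and T in capitals. RefSeq windows matched 63 of the 83 members, 57 core genes and all 6 paralogs. Rpl39, Rps12 and Rpsa were among the core genes with the largest difference between neuron-like and fibroblast-like cells, and Rpl7a, Rpl5 and Rpl27 among those with the smallest. Their windows were at chrX:37085203-37085232 (minus strand), chr10:23787190-23787219 (minus), chr9:120127756-120127785 (plus), chr2:26910797-26910826 (plus), chr5:107900518-107900547 (plus) and chr11:101442235-101442264 (plus), in that order. The windows of the paralogs were at chr3:28805498-28805527 (plus) for Rpl22l1 and chr16:10170218-10170247 (plus) for Rpl39l.
Rpl39: gctccgcctctagcgaCTTCTTCTaatcgc
Rps12: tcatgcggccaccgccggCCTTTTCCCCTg
Rpsa: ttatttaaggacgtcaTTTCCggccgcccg
Rpl7a: CTCTTCTTTCTTTCTCCagcagccgagcaa
Rpl5: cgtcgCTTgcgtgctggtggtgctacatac
Rpl27: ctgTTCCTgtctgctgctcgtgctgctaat
Rpl22l1: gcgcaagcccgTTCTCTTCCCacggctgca
Rpl39l: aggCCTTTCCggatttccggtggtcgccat
A run of at least 8 pyrimidines was present in 34.3% of 67 windows of core genes, in 12.5% of 8 windows of paralogs and in 11.2% of 32851 windows of all genes. A C within 5 bases of the start followed by 4 pyrimidines was present in 43.3%, 25.0% and 18.3% of them. The shares were counted on the strand of the gene only, and a start listed some bases away would not be found. The runs were 8, 11 and 5 bases in Rpl39, Rps12 and Rpsa, and 17, 3 and 5 bases in Rpl7a, Rpl5 and Rpl27. A relation of the run to the difference was not tested.

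The first comparison was of the share of a cell class's UMI that came from the 77 core genes. It was highest in fibroblast-like cells, at 23.6% ± 2.06 (SD, n = 9 libraries, range 19.2% to 25.9%). In neuron-like cells it was 11.5% ± 0.984 (n = 9, 10.2% to 12.9%), so that the ranges were far apart. Mesothelial-like cells had 21.9% ± 3.07 (n = 8), skeletal muscle-like cells 17.9% ± 2.03 (n = 9), macrophage-like cells 16.4% ± 1.29 (n = 9), Schwann-like cells 15.96% ± 1.52 (n = 9) and astrocyte-like cells 14.6% ± 2.24 (n = 8). Mesothelial-like cells were spread widely within a library, the 10th percentile of the share per cell lying at 12.9% to 16.8% and the 90th at 24.5% to 56.1%, against 13.8% to 19.6% and 24.5% to 32.2% in fibroblast-like cells. The order therefore ran from fibroblast-like through muscle, macrophage and Schwann to neuron-like cells, and the middle classes overlapped within their spread.

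In fibroblast-like cells the share on days 4, 7 and 10 was 24.4%, 23.0% and 19.2% in WT, 24.9%, 22.9% and 22.4% in Per1-/-, and 25.9%, 24.4% and 25.7% in Per2-/-. Neuron-like cells had 12.9%, 11.1% and 10.49% in WT, 12.4%, 10.9% and 11.1% in Per1-/-, and 12.8%, 10.2% and 11.7% in Per2-/-. WT day 10 gave the lowest fibroblast-like share, and the neuron-like share was lower than the fibroblast-like share of the same library in 9 of 9.

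**Figure D1:**
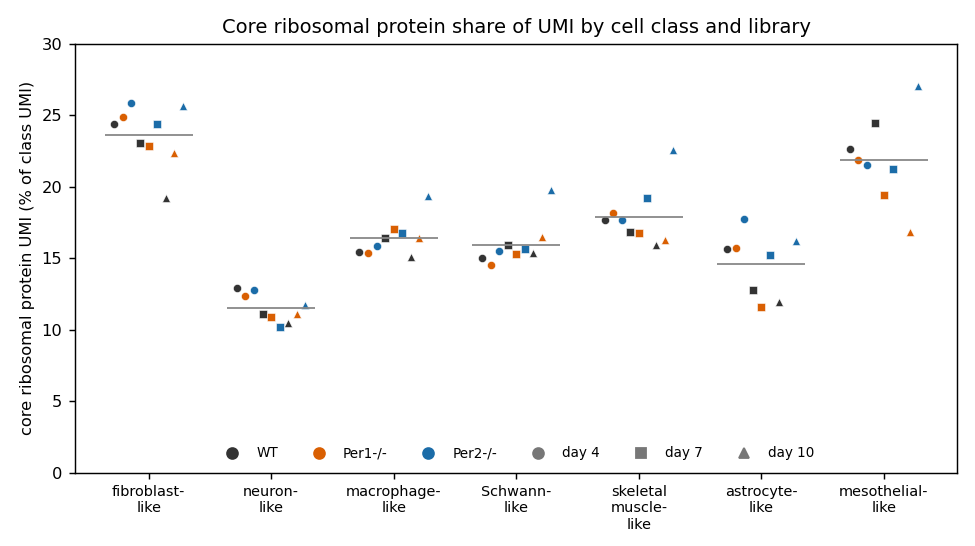
Share of UMI from the 77 core ribosomal protein genes (percent, y axis) in each cell class (x axis); each point is 1 library, coloured by genotype and shaped by day, and the line is the mean of 8 or 9 libraries. Fibroblast-like libraries lie between 19.2% and 25.9%, above every neuron-like library (10.2% to 12.9%).

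Each class was paired with the fibroblast-like cells of the same library and tested by an exact two-sided sign-flip permutation test, with Benjamini-Hochberg adjustment over 6 classes. The neuron-like share was lower by 12.1 percentage points (SD 1.63, lower in 9 of 9 libraries, exact p = 0.00391, adjusted p = 0.00586), and 0.00391 is the smallest p that 9 signs allow. Macrophage-like, Schwann-like and skeletal muscle-like cells were lower in 9 of 9 libraries with the same p, with differences of -7.22, -7.68 and -5.72 points. Astrocyte-like cells differed by -9.19 points (lower in 8 of 8 libraries, exact p = 0.00781, adjusted p = 0.00938). The mesothelial-like difference, -2.30 points (lower in 6 of 8 libraries, exact p = 0.0391, adjusted p = 0.0391), turned to 2.11 points higher (adjusted p = 0.25 by the same exact test) when every cell was thinned to 3000 UMI. It also lost its call (exact adjusted p = 0.0625 to 0.0781) without Per1-/- day 4, 7 or 10, Per2-/- day 4 or 7, or WT day 4. All 6 differences shared the same fibroblast-like values.

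Neuron-like cells were shallower, with library medians of 9142 to 14391 UMI per cell against 17928 to 31323 in fibroblast-like cells. Among cells with 10000 to 20000 UMI, the core share was 19.1% to 26.3% (median 22.7%) in fibroblast-like, 15.3% to 19.4% (median 17.2%) in macrophage-like and 10.7% to 12.9% (median 11.5%) in neuron-like cells. The order of these classes was thus the same at matched depth. Mitochondrial transcripts made up 4.75% to 6.94% of UMI in fibroblast-like and 5.41% to 7.84% in neuron-like cells. In astrocyte-like cells they made up 7.15% to 11.3%, wholly above the fibroblast-like range, which the other classes overlapped. The share tests were also run with mitochondrial UMI left out of the total, with values not given here. Their part in the differences of single genes was not tested.

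Next, each gene was compared between classes with edgeR's quasi-likelihood test on UMI summed per class and library, with the library as a block, over 15204 genes. In neuron-like against fibroblast-like cells all 77 core genes were called lower at an adjusted p under 0.05 and 0 higher (0 also by DESeq2), where 39.7% of all genes tested were called lower and 39.8% higher. The median log2 difference of the core genes was -1.36, a fold of 0.389, beside 0.01 for all genes. DESeq2 called 77 lower as well, and 72 of the 77 were at least 2-fold lower in the edgeR fit. Large-subunit genes had a median of -1.29, small-subunit genes -1.42 and the P-stalk genes -1.81. In the CPM, 77 core genes were lower in neuron-like cells in every library, as were 22.8% of all genes tested. The neuron-like range lay wholly below the fibroblast-like range for 70 of the 77, and for 16.6% of all genes.

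The scaling of the libraries moved all genes together. Scaling to total UMI in place of TMM shifted the median of all genes from 0.01 to 0.40 in the neuron-like and from -0.11 to -0.37 in the macrophage-like contrast, and calls that were lower went from 49.9% to 33.1% and from 53.5% to 63.3% of all calls. Such a shift is nearly the same for every gene, so the core median relative to the median of all genes hardly depends on it. It was -1.37 in neuron-like and -0.15 in macrophage-like cells. The share of calls that were lower also went from 58.1% to 41.2% in Schwann-like, from 54.7% to 31.3% in skeletal muscle-like and from 53.2% to 33.1% in astrocyte-like cells, and with DESeq2's size factors from 61.3% to 45.5% in mesothelial-like cells. Relative to all genes, the core median was -0.94 in astrocyte-like, -0.66 in Schwann-like, -0.56 in skeletal muscle-like and -0.05 in mesothelial-like cells.

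Rps20, a small-subunit protein of the head, had the largest difference. Its level in fibroblast-like cells lay between 5050 CPM (WT day 10) and 6951 CPM (WT day 4), and in neuron-like cells between 1481 CPM (Per2-/- day 7) and 2240 CPM (WT day 4). No neuron-like library reached the lowest fibroblast-like library. The log2 difference of Rps20 was -2.24 ± 0.09 (SE, adjusted p = 2.94e-28 in edgeR). Rpl39, a short protein at the peptide exit tunnel, followed with -2.01, Rps12 with -2.01 and Rpsa, which is also described as a laminin receptor, with -1.95.

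At the other end of the order, Rpl27 was lower by only -0.69 ± 0.07 on the log2 scale (adjusted p = 5.03e-12). Rpl5, which binds the 5S ribosomal RNA, had -0.93, Rpl8 had -0.95 and Rpl7a had -0.97. Rpl27 lay between 894 and 1769 CPM in fibroblast-like cells and between 721 and 1376 CPM in neuron-like cells, so that its ranges overlapped, although within each library the neuron-like value was the lower. Its day 10 values were higher than the others in both classes, as described with the days.

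**Figure D2:**
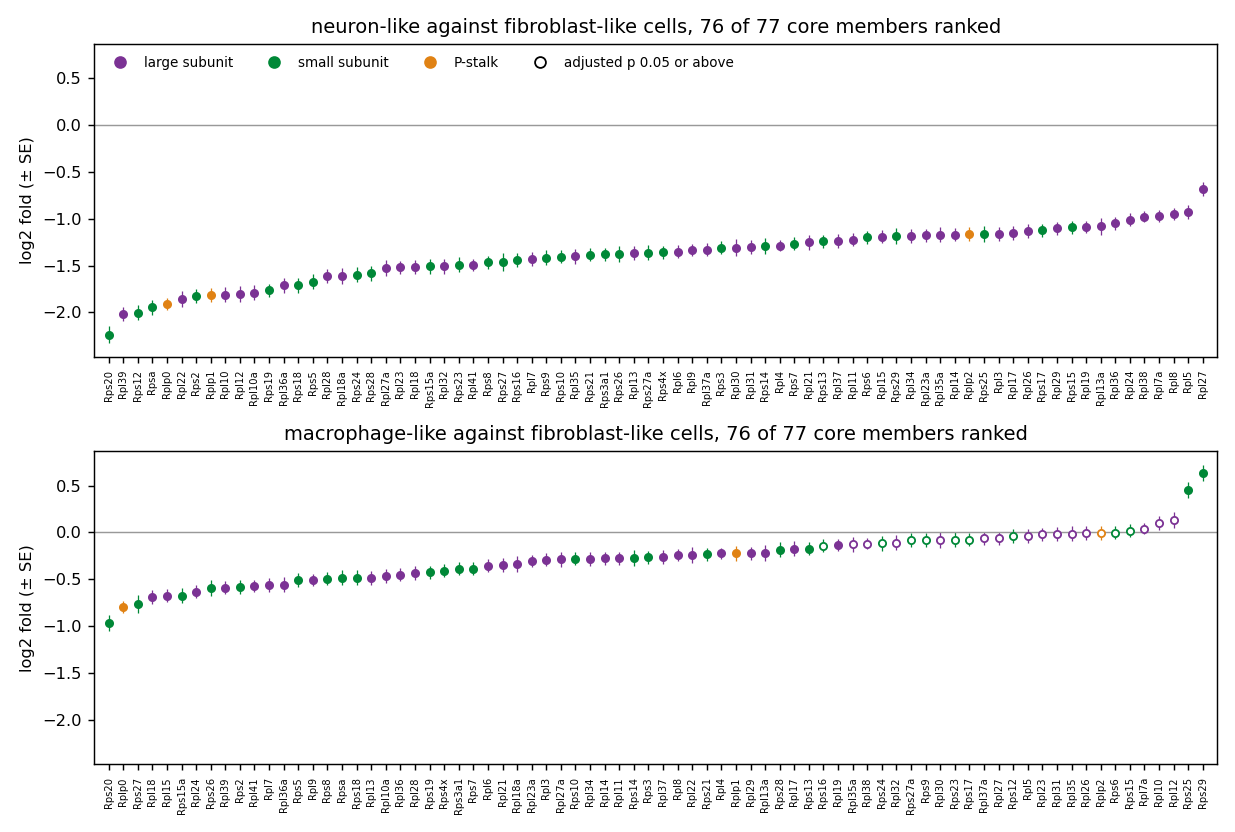
Log2 difference from fibroblast-like cells (y axis) of 76 of the 77 core genes, ranked (x axis), in neuron-like (upper) and macrophage-like cells (lower), from the edgeR fit; bars are the SE, colours the subunit, and open points did not pass the test. Neuron-like values run from -2.24 (Rps20) to -0.69 (Rpl27) and stay below 0, while macrophage-like values run from -0.97 (Rps20) to 0.63 (Rps29) and cross it.

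Macrophage-like cells differed less. With TMM scaling 50 core genes were called lower and 3 higher, with a median of -0.26, where 44.5% of all genes were called lower and 38.7% higher. DESeq2 called 55 lower and 2 higher. Scaled to total UMI, 73 were lower and 2 higher (median -0.52), beside 8104 of all 15204 genes lower and 4695 higher (median -0.37). Scaled to UMI outside the ribosomal protein genes, 75 were lower and 1 higher (median -0.65), beside 8764 of all genes lower and 4153 higher (median -0.50). The larger counts of core genes thus came with a lower median of all genes. The largest lower differences were those of Rps20 (-0.97), the P-stalk scaffold Rplp0 (-0.80), Rps27 (-0.77) and Rpl18 (-0.69), and the smallest that was called was that of Rpl19 (-0.14). In CPM, 73 of 77 core genes were lower in every library, as were 46.6% of all genes, and 37 of 77 had a range wholly below that of fibroblast-like cells, as had 35.4% of all genes.

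Rps29 and Rps25 were among the genes called higher in macrophage-like cells with TMM scaling. Rps29, a zinc-binding protein of the small subunit, lay between 6167 and 10608 CPM in macrophage-like and between 4369 and 8225 CPM in fibroblast-like cells, and was the higher of the pair in 9 of 9 libraries, with a log2 difference of 0.63. Rps25, which takes part in internal initiation of some viral mRNAs, was at 1569 to 2165 CPM in macrophage-like and 1427 to 1752 CPM in fibroblast-like cells, with 0.45. Its CPM was higher in 6 of 9 libraries.

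The glial and muscle classes followed the neuron-like direction with smaller differences. In Schwann-like, skeletal muscle-like and astrocyte-like cells 77 of 77 core genes were called lower and 0 higher by edgeR and DESeq2, with 77 at an unadjusted p under 0.05. Of all genes, 39.1% were called lower and 28.3% higher in Schwann-like, 34.5% and 28.5% in skeletal muscle-like, and 34.9% and 30.8% in astrocyte-like cells. The core medians were -0.78, -0.61 and -0.99. The range of CPM lay wholly below that of fibroblast-like cells for 27, 4 and 51 of the 77 core genes in this order, and for 14.6%, 7.52% and 8.12% of all genes.

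Rps20 again had the largest difference, with -1.24 in Schwann-like, -1.05 in skeletal muscle-like and -1.58 in astrocyte-like cells. It was followed by Rps28 (-1.09) in Schwann-like cells, by the P-stalk gene Rplp1 (-0.98) in skeletal muscle-like cells, and by Rpl10 (-1.53), a late-joining large-subunit protein, in astrocyte-like cells. The smallest called differences were those of Rpl7a (-0.40) and Rps6 (-0.37), whose product is the phosphorylation target of S6 kinase, in Schwann-like cells. In skeletal muscle-like cells they were those of Rpl7a (-0.43) and Rpl27 (-0.33), and in astrocyte-like cells those of Rpl27 (-0.64) and Rps15 (-0.56).

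Mesothelial-like cells, 585 cells in 8 libraries, were closest to fibroblast-like cells. There 35 core genes were called lower and 0 higher by edgeR (47 at an unadjusted p under 0.05, and 6 lower and 0 higher by DESeq2), where 26.9% of all genes were called lower and 16.9% higher. The median was -0.17, beside -0.12 for all genes. Rps20 and Rps27 had -0.33 each, and the smallest called differences were -0.17 for Rps3 and Rpl4. The count fell to 4 with DESeq2's size factors and to 8 without Per1-/- day 10 or without Per2-/- day 4. Leaving out Per2-/- day 7 gave 12, Per1-/- day 7 gave 21, and Per1-/- day 4 or WT day 4 gave 22.

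Genes that work with the ribosomal proteins were described from fixed lists, in neuron-like and then macrophage-like cells against fibroblast-like cells. Their counts stand beside 39.7% of all genes called lower and 39.8% higher in neuron-like cells, and 44.5% lower and 38.7% higher in macrophage-like cells. Fau, a ribosomal protein made as a fusion with a ubiquitin-like protein, and Rack1, a scaffold bound to the small subunit, were lower in neuron-like cells (log2 -1.11 and -1.55). In macrophage-like cells Fau was higher (0.50) and Rack1 was lower (-0.20). Of 7 genes, elongation factors and Tpt1, 6 were lower in neuron-like cells, with Eef1b2 at -1.89 and Eef1a1 at -1.38. Eef1a2, the neuron and muscle form of the factor that brings aminoacyl-tRNA to the ribosome, was higher by 5.38. In macrophage-like cells 5 of the 7 were lower and 0 higher (edgeR, 5 at an unadjusted p under 0.05, 0 higher by DESeq2).

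Of 30 initiation factor genes, 22 were lower and 5 higher in neuron-like cells, with Eif4ebp1, a repressor of cap-dependent initiation, at -2.72 and Eif1b at 1.30. Macrophage-like cells had 12 lower and 16 higher. Of 59 ribosome biogenesis genes, 36 were lower and 6 higher in neuron-like cells, where the nucleolar chaperone Npm1 had -1.48 and Rrn3, an initiation factor of RNA polymerase I, had 0.80. In macrophage-like cells the split was 7 lower and 37 higher, with Heatr1 at 1.94 and Imp4 at 1.76, both parts of the machinery that makes small-subunit RNA, and Npm1 at -0.76. The core genes and the biogenesis genes thus had opposite majorities in macrophage-like cells. The counts of these lists were made with TMM scaling, and under total UMI all values of the macrophage-like contrast lie lower and those of the neuron-like contrast higher, by the shifts given above.

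The 78 mitochondrial ribosomal protein genes, which belong to the separate ribosome of mitochondria, were split in neuron-like cells, with 30 lower and 27 higher, from Mrps6 (-1.76) to Mrpl34 (0.93). In macrophage-like cells 7 were lower and 53 higher, from Mrps6 (-1.22) to Mrpl28 (1.21). Of 18 genes of mTORC1 and Myc control, neuron-like cells had 5 lower and 8 higher, with Sesn2 at -2.42, the mTOR-binding Deptor at -2.28, Mycn at 3.56 and Mycl at 4.16. Macrophage-like cells had 4 lower and 10 higher, with Ddit4 at -3.27 and Myc at 1.31. The only 2 of 10 snoRNA host genes that were measured, Snhg12 and Snhg6, were lower in both contrasts (-2.31 and -0.40 in neuron-like, -2.66 and -1.09 in macrophage-like cells).

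The paralogs were described apart, by level and by their share of the UMI of their pair, which does not depend on the scaling of a library. Rpl3l, the muscle form of Rpl3, had 71 UMI in all barcodes of the series, of which 25 were in macrophage-like, 13 in fibroblast-like, 6 in neuron-like and 1 in skeletal muscle-like cells, and did not pass the filter on low counts. The other 5 paralogs were tested in each class. In neuron-like cells Rpl22l1, Rps27l, Rpl7l1 and Rpl36al were lower, and Rpl39l was not called.

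Rpl39l, a form known for its high expression in the testis, was the least abundant of the 5. In neuron-like cells of days 4, 7 and 10 it was at 23.9, 23.3 and 25.6 CPM in WT, 19.0, 18.4 and 16.6 CPM in Per1-/-, and 13.7, 14.2 and 12.5 CPM in Per2-/-. Fibroblast-like cells had 23.2, 26.0 and 24.2 CPM in WT, 15.2, 33.8 and 20.5 CPM in Per1-/-, and 6.70, 15.1 and 25.5 CPM in Per2-/-. Values of both classes overlapped. The log2 difference of neuron-like from fibroblast-like cells was -0.55 ± 0.28 (SE, edgeR adjusted p = 0.0670), while that of its parent Rpl39 was -2.01.

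Skeletal muscle-like cells were at 15.7 to 34.4 CPM of Rpl39l, with a log2 difference of 0.02 (adjusted p = 0.961). In the remaining classes Rpl39l was lower than in fibroblast-like cells. It was at 0 to 7.06 CPM in macrophage-like cells (log2 -3.22), 0 to 1.74 CPM in Schwann-like cells (-4.83), 0.267 to 9.07 CPM in astrocyte-like cells (-3.33) and 0.597 to 5.41 CPM in mesothelial-like cells (-3.10). No library of these classes except 1 of astrocyte-like and 1 of macrophage-like cells exceeded the lowest fibroblast-like library, 6.70 CPM.

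As a share of Rpl39 and Rpl39l UMI, Rpl39l made up 0.855% in neuron-like cells against 0.323% in fibroblast-like cells, a difference of 0.532 points (SD 0.165, higher in 9 of 9 libraries, exact p = 0.00391, adjusted p = 0.00781 over 30 tests of 5 pairs in 6 classes). In skeletal muscle-like cells it was 0.560% (8 of 9 libraries higher, exact p = 0.00781, adjusted p = 0.00938). The share was 0.04996% in macrophage-like, 0.0157% in Schwann-like, 0.0819% in astrocyte-like and 0.0391% in mesothelial-like cells, below the fibroblast-like share in every library of each class.

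Rpl22l1, the paralog of Rpl22, was lower in neuron-like (log2 -1.20), macrophage-like (-0.42), Schwann-like (-0.59), skeletal muscle-like (-0.67) and astrocyte-like cells (-0.52), and had 0.20 in mesothelial-like cells without passing the test (edgeR adjusted p = 0.0881, but 0.0289 when scaled to total UMI). Its share of the pair in neuron-like cells on days 4, 7 and 10 was 43.3%, 51.7% and 56.7% in WT, 41.6%, 50.8% and 56.2% in Per1-/-, and 40.7%, 54.7% and 61.0% in Per2-/-. In fibroblast-like cells it was 44.1%, 37.8% and 39.6% in WT, 43.1%, 35.3% and 38.6% in Per1-/-, and 40.9%, 37.3% and 39.2% in Per2-/-. On day 4 the neuron-like share was thus the lower of the pair in 3 of 3 libraries, and on days 7 and 10 it was the higher in 6 of 6. Over all days, the share was above the fibroblast-like share in every library of Schwann-like (3.68 points), astrocyte-like (9.29) and mesothelial-like cells (5.72). It was lower in 8 of 9 macrophage-like libraries (-2.56 points) and higher in 6 of 9 skeletal muscle-like libraries (2.58 points).

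The neuron-like minus fibroblast-like difference of the Rpl22l1 share was -0.829 points on day 4, 15.7 points on day 7 and 18.8 points on day 10, as means of 3 libraries. Over all days it was 11.2 points (exact p = 0.0313, adjusted p = 0.0335), and the adjusted p was 0.0647 to 0.0670 when any library of day 7 or 10 was left out. Behind this, Rpl22 fell in neuron-like cells from day 4 to day 7 (log2 -0.48, adjusted p = 0.00478 in edgeR), while Rpl22l1 had 0.13 (adjusted p = 0.471). In fibroblast-like cells Rpl22l1 had -0.58 between the same days (adjusted p = 0.0757).

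On day 10 most neuron-like cells were in a cluster nearly absent from the earlier days. The clustering made no correction for differences between libraries, and day 10 was counted on another feature table. Whether this cluster is a distinct cell state was not tested. Clusters are called by their leading genes. The cluster led by Snhg11 and Stmn3 held 1166 of 1628 neuron-like cells on day 10, 15 of 2306 on day 7 and 3 of 6370 on day 4. Its Rpl22l1 share of the pair was 58.4% to 62.8% on day 10. In the cluster led by Miat and Elavl3 the share was 40.8% to 42.6% on day 4, 48.6% to 54.0% on day 7, and 48.0% and 47.3% in the 2 libraries of day 10 with at least 30 such cells. In the cluster led by Gcg and Pou3f2 it was 40.4% to 43.9% on day 4, 54.5% to 57.7% on day 7, and 55.0% and 52.1% in 2 libraries of day 10. The day 7 values were thus above those of day 4 within both clusters, and no day 10 value of either exceeded its highest day 7 value. The cluster led by Htr3a and Ecel1 was at 42.1% to 48.3%, 46.0% to 46.8% and 44.8% to 51.6% on the 3 days, with ranges that overlapped.

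**Figure D3:**
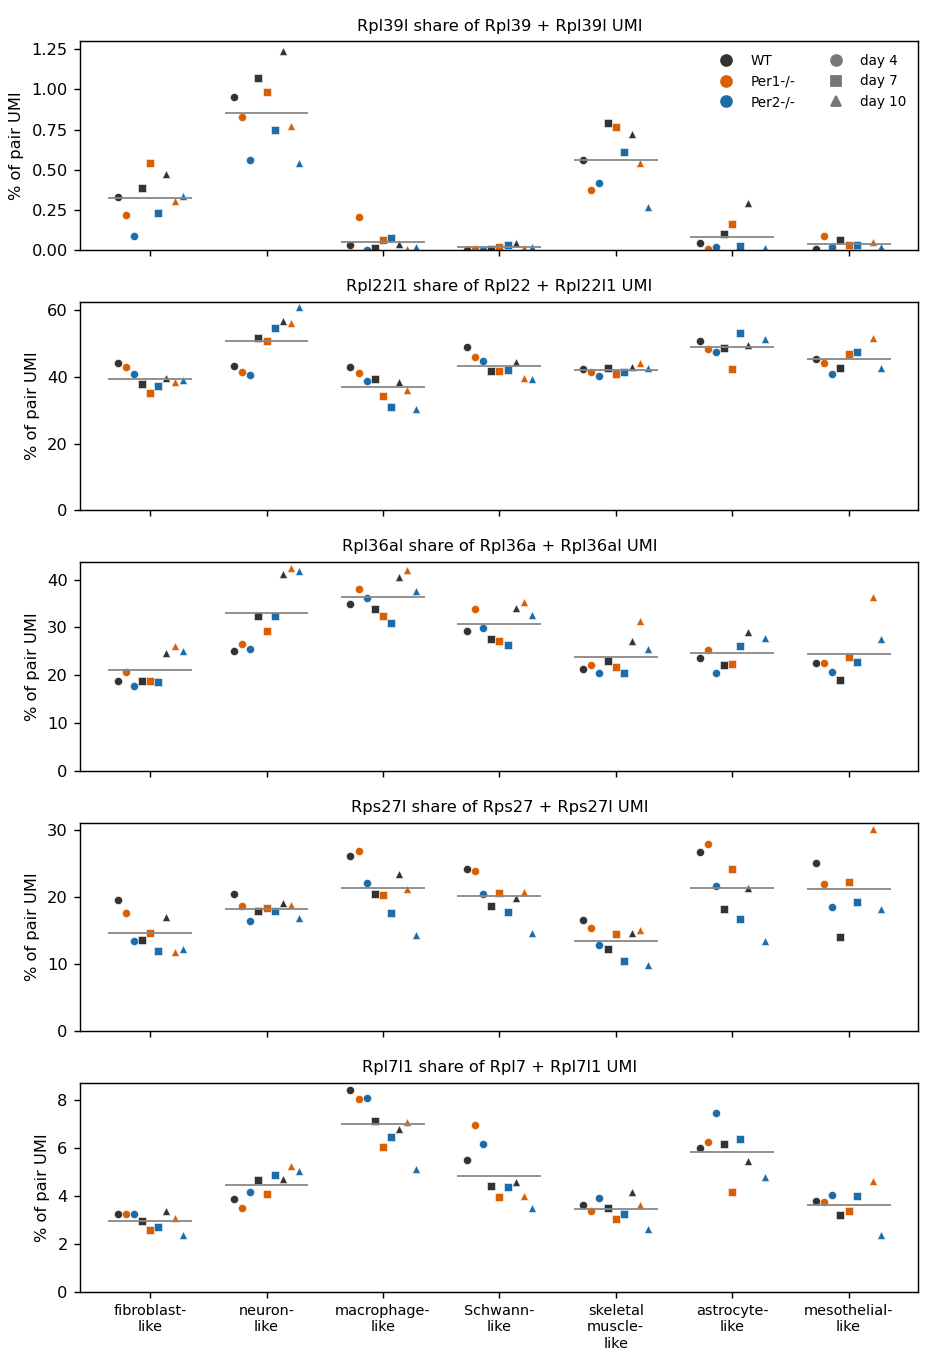
Share of each paralog in the UMI of its pair (percent, y axis, 1 panel per pair, each with its own scale from 0) in each class (x axis); each point is 1 library and the line is the mean. Rpl39l is highest in neuron-like cells (mean 0.855%) and near 0 in Schwann-like cells (0.0157%), and Rpl22l1 reaches 61.0% in 1 neuron-like library.

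Rpl36al, the paralog of the X-linked Rpl36a, was higher in macrophage-like cells by 0.54 on the log2 scale while it was lower in neuron-like (-0.83), skeletal muscle-like (-0.47) and astrocyte-like cells (-0.58). Schwann-like cells had -0.16, called by TMM scaling, but 0.07 when scaled to total UMI. Mesothelial-like cells had 0.14 and did not pass with TMM scaling (edgeR adjusted p = 0.0904), but passed with 0.19 when scaled to total UMI (edgeR adjusted p = 0.0141), and the CPM was higher than in fibroblast-like cells in 8 of 8 libraries there and in 9 of 9 in macrophage-like cells. Its share of the pair was 36.3% in macrophage-like, 32.9% in neuron-like and 30.6% in Schwann-like cells against 21.0% in fibroblast-like cells, higher in 9 of 9 libraries in each (exact p = 0.00391, adjusted p = 0.00781).

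Rps27l, a p53-responsive paralog of Rps27, was lower in neuron-like (-1.08), Schwann-like (-0.47), skeletal muscle-like (-0.73) and astrocyte-like cells (-0.47) and higher in mesothelial-like cells (0.32). In macrophage-like cells it had -0.12 with TMM scaling and did not pass (edgeR adjusted p = 0.130), but -0.38 when scaled to total UMI (edgeR adjusted p = 3.21e-06), and its CPM was lower than in fibroblast-like cells in 9 of 9 libraries. Its share was 14.6% in fibroblast-like, 18.3% in neuron-like and 21.4% in macrophage-like cells, again higher in 9 of 9 libraries. In skeletal muscle-like cells the share was 13.5% (lower in 8 of 9 libraries, exact p = 0.113, adjusted p = 0.113).

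Rpl7l1, a relative of Rpl7 linked to ribosome assembly, was higher in macrophage-like (0.73) and lower in neuron-like (-0.84) and skeletal muscle-like cells (-0.30). The muscle call was made with TMM scaling. Scaled to total UMI the difference was -0.05 (edgeR adjusted p = 0.409), and CPM was higher than in fibroblast-like cells in 3 libraries and lower in 6. Schwann-like (0.06), astrocyte-like (0.13) and mesothelial-like cells (0.13) did not pass with TMM scaling (edgeR adjusted p = 0.368, 0.0610 and 0.113). Scaled to total UMI they passed, with 0.30, 0.40 and 0.17, and CPM was higher than in fibroblast-like cells in 9 of 9, 8 of 8 and 8 of 8 libraries. Its level was 72.2 to 82.1 CPM in macrophage-like, 49.1 to 61.1 CPM in fibroblast-like and 36.7 to 42.9 CPM in neuron-like cells, with 3 ranges that did not overlap. It made up 7.03% of its pair in macrophage-like, 5.85% in astrocyte-like and 2.97% in fibroblast-like cells.

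Within the fibroblast-like class, Rpl39l differed between clusters. Clusters were built without the ribosomal protein genes and are called by their leading genes. Rpl39l lay between 26.7 and 44.9 CPM in 9 libraries of the cluster led by C1qtnf3 and Lgr5, and between 0 and 1.60 CPM in 7 of 8 libraries of the cluster led by Hoxd13 and Msx1, genes of the limb. The exception was Per1-/- day 7 with 20.8 CPM, from 38 cells and 18 UMI. The first cluster was the higher in 8 of 8 libraries that held both.

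The cluster led by Slc14a1 and Grem1 was at 0.682 to 12.4 CPM of Rpl39l, below the C1qtnf3 and Lgr5 cluster in 9 of 9 libraries. A cluster led by Dlx5 and Pou3f3 ran from 1.58 to 103 CPM, with the highest value in 49 cells of Per1-/- day 7. A cluster with the neural genes Tac1 and Cbln2 among its leading genes, which kept its fibroblast markers, was at 11.7 to 39.7 CPM. The libraries held these clusters in unequal numbers. In Per2-/- day 4, which had the lowest fibroblast-like value, 685 of 4586 fibroblast-like cells were in the first cluster, and in Per1-/- day 7, which had the highest, 1902 of 2556 were. The part of this mix in the class values was not tested.

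The share of cells with an Rpl39l UMI, after thinning each cell to 10000 UMI, was 20.01% (19.2% to 20.8%, exact 95% binomial interval for counting error) in the C1qtnf3 and Lgr5 cluster and 0.438% (0.299% to 0.617%) in the Hoxd13 and Msx1 cluster. These intervals pool the cells of all libraries and do not cover the spread between libraries. By library the shares ran from 16.6% to 23.6% in the first cluster and from 0% to 2.70% in the second. Unthinned, the pooled shares were 29.1% and 1.02%, at median depths of 27393 and 22619 UMI, and thinning left out 79 and 118 cells. Neuron-like cells had 11.4% (3673 cells left out) and skeletal muscle-like cells 14.3%. Schwann-like and macrophage-like cells had 0.596% and 1.08%, the latter from 0% to 3.68% by library. The share in the Hoxd13 and Msx1 cluster was no higher than either, and free RNA was not measured.

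**Figure D4:**
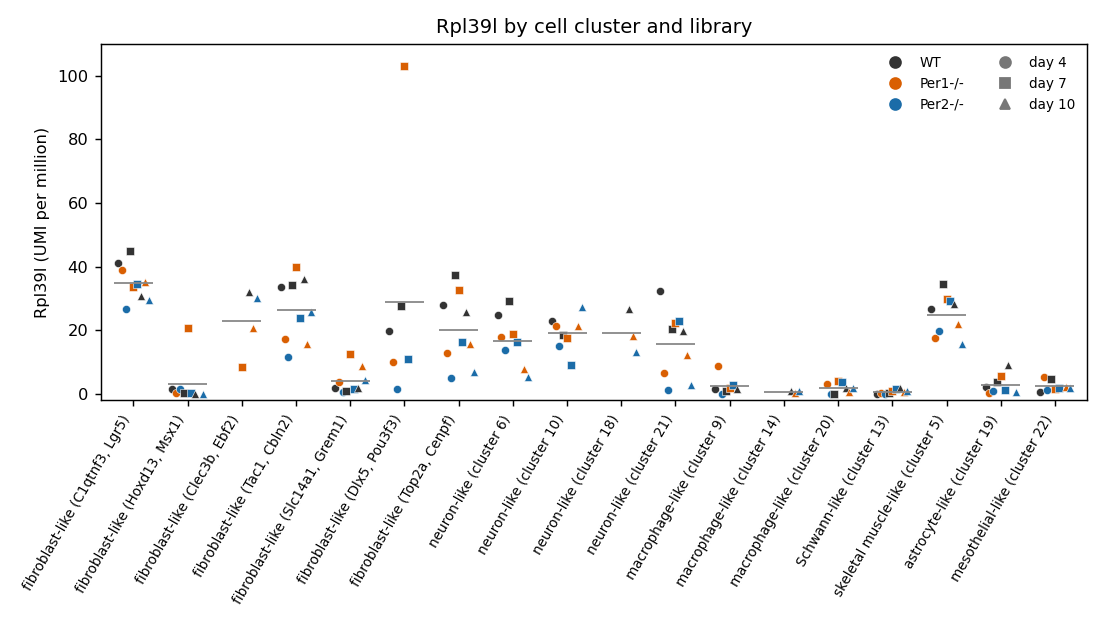
Rpl39l level (CPM, y axis) in each cluster of the fibroblast-like class and in the other classes (x axis); each point is 1 library with at least 30 cells and the line is the mean. The C1qtnf3 and Lgr5 cluster lies between 26.7 and 44.9 CPM in 9 libraries, and 7 of 8 libraries of the Hoxd13 and Msx1 cluster lie between 0 and 1.60 CPM.

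The core share also varied between clusters of a class. In the fibroblast-like cluster led by Tac1 and Cbln2 it was 16.3% to 21.6% (median 19.5%), lower than in the C1qtnf3 and Lgr5 cluster in 9 of 9 libraries and lower than in the Hoxd13 and Msx1 cluster in 8 of 8. It was higher than in the neuron-like cluster led by Gcg and Pou3f2, the latter a transduced factor, in 8 of 8 libraries. Cycling fibroblast-like cells, led by Top2a and Kif11, were below the C1qtnf3 and Lgr5 cluster in 9 of 9 libraries. Among neuron-like cells, the cluster led by Miat and Elavl3 (median 11.3%) was below that led by Gcg and Pou3f2 (median 13.4%) in 8 of 8 libraries. These are descriptions of direction, with no test.

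Genotypes were compared within fibroblast-like, neuron-like and macrophage-like cells, with the day as a block and 3 libraries per genotype. The core share in Per1-/- minus the mean of WT and Per2-/- was -0.386 points in fibroblast-like, -0.0742 in neuron-like and -0.217 in macrophage-like cells. By an exact permutation of the genotypes within days (27 assignments, two-sided, smallest p 0.037) the p-values were 0.852, 0.926 and 0.889. Each of these differences was smaller than the spread between libraries of the class.

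Across genes, edgeR called 0 of 77 core genes in any of 9 genotype contrasts. In fibroblast-like cells 0.0% of all genes were called in Per1-/- against Per2-/-, 0.0% in Per1-/- against WT and 0.0% in Per2-/- against WT. In macrophage-like cells these shares were 0.0235%, 0.00783% and 0.0%, and in neuron-like cells 0.00675%, 0.0% and 0.0338%. At an unadjusted p under 0.05 there were 2, 0 and 13 core genes in fibroblast-like, 6, 0 and 5 in macrophage-like, and 3, 1 and 0 in neuron-like cells, in the same order of contrasts. The share of all genes at that unadjusted threshold is not given for any contrast, so such counts stand without a background. DESeq2 called 1 core gene, lower in Per1-/- than in Per2-/- fibroblast-like cells, and 0 in the other 8 contrasts. Rpl13a (-0.74) and Rpl35 (-0.69) were the core genes with an unadjusted p under 0.05 in that contrast, with adjusted p = 0.418 and 0.441 in edgeR. Their values in macrophage-like cells were -0.74 and -0.63 and in neuron-like cells -0.64 and -0.61, from the same libraries.

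Among paralogs Rpl39l was the only one called by edgeR. In neuron-like cells it was lower in Per2-/- than in WT by -0.82 ± 0.11 (SE, adjusted p = 0.0459, DESeq2 adjusted p = 0.000618), with the values by library given earlier, in which WT was the highest and Per2-/- the lowest of the 3 genotypes on each day. The call was lost in edgeR without any 1 library other than Per1-/- day 4 (adjusted p from 0.0608 to 0.239), the difference then lying between -0.86 and -0.76. It was also lost when scaled to total UMI (edgeR adjusted p = 0.0516) and with doublets kept (edgeR adjusted p = 0.0589). Against WT, Per1-/- had -0.41 (adjusted p = 0.517). In fibroblast-like cells Per2-/- against WT had -0.72 (adjusted p = 0.713). Among cells so named, Per2-/- was the lowest on days 4 and 7 and the highest on day 10. That rank left out a cluster led by Pcolce2 and Mia, which scored highest for chondrocyte markers and stayed unnamed. On day 10 this cluster held 4363 Per2-/- cells at 0.829 CPM of Rpl39l, 516 WT cells at 1.66 and 193 Per1-/- cells at 0.5865. The Per2-/- cells named fibroblast-like on that day numbered 2026, and the order with the cluster added is not given here. In skeletal muscle-like cells WT was the highest of the 3 on each day, at 26.8, 34.4 and 28.1 CPM.

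By neuron-like cluster the order was less even. In the cluster led by Miat and Elavl3, Rpl39l on days 4 and 7 was at 24.6 and 29.3 CPM in WT, 17.9 and 18.7 in Per1-/-, and 13.9 and 16.2 in Per2-/-. In the cluster led by Gcg and Pou3f2 it was at 22.9 and 18.5 CPM in WT, 21.4 and 17.5 in Per1-/-, and 15.1 and 9.19 in Per2-/-, and on day 10 at 21.4 in 48 Per1-/- cells and 27.2 in 49 Per2-/- cells. Per2-/- was the lowest in these 2 clusters on both earlier days, and not on day 10 in the second. The first cluster on day 10 had 3 Rpl39l UMI in each of Per1-/- and Per2-/-. In the cluster led by Snhg11 and Stmn3, measured on day 10, Rpl39l was at 26.7 CPM in WT, 18.0 in Per1-/- and 13.1 in Per2-/-. In the cluster led by Htr3a and Ecel1 the 3 genotypes, in the same order, were at 32.2, 6.67 and 1.16 CPM on day 4, at 20.5, 22.3 and 22.9 on day 7, and at 19.6, 12.3 and 2.74 on day 10. Per2-/- was thus the highest there on day 7, with 47 UMI, and the lowest on day 4, with 1 UMI in 58 cells, and on day 10, with 3 UMI in 93 cells.

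Of the X-linked members, in fibroblast-like cells Rps4x lay between 2464 and 3487 CPM, Rpl36a between 1288 and 1935 CPM and Rpl39 between 5124 and 7659 CPM, each lowest in WT day 10. Rpl10 lay between 891 and 1552 CPM, with its highest values in Per2-/- day 7 (1483 CPM) and Per2-/- day 10 (1552 CPM). The same 2 libraries were the highest in macrophage-like cells (1232 and 1496 CPM) and in neuron-like cells (465 and 542 CPM). On day 4, by contrast, Rpl10 in Per2-/- was below WT and Per1-/- in each of these classes. It was then at 1115 CPM in Per2-/-, 1143 in WT and 1209 in Per1-/- fibroblast-like cells. In the same order, macrophage-like cells had 884, 954 and 933 CPM, and neuron-like cells had 394, 442 and 436 CPM.

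Days were compared in the same fits. From day 4 to day 7 edgeR called 14 core genes and Rps27l lower in neuron-like cells. Of all genes 19.6% were called in either direction, and the count of members was near that share. The core median was -0.24. Rps27l had -0.60, Rps27 had -0.55, Rpl22 had -0.48 and Rps15a had -0.44, and the smallest called differences included those of Rps3a1 (-0.31) and Rpl27a (-0.28). The count of 15 members went to 29 with DESeq2 and to 26 when scaled to total UMI. The share of all genes called is not given for these or the following alternatives, so their counts stand without a background. Without 1 library it was 2 (Per1-/- day 7 or Per2-/- day 7), 3 (WT day 4), 5 (Per2-/- day 4), 6 (Per1-/- day 4 or Per1-/- day 10), 12 (WT day 7), 23 (Per2-/- day 10) or 35 (WT day 10).

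In fibroblast-like and macrophage-like cells edgeR called 0 members between days 4 and 7, where 2.93% and 0.36% of all genes were called. At an unadjusted p under 0.05 there were 0 core genes and 3 paralogs in fibroblast-like cells, and 8 core genes and 2 paralogs in macrophage-like cells. The share of all genes at that threshold is not given, so these counts too stand without a background. DESeq2 called 2 paralogs lower in fibroblast-like and 0 members in macrophage-like cells. The core share had a mean slope of -0.439 points per day in fibroblast-like cells (exact permutation of days within genotypes, 216 orders, two-sided p = 0.0463, smallest p 0.00926), but -0.302 without WT day 10 (exact p = 0.139) and -0.287 without Per2-/- day 4 (exact p = 0.333). It also missed 0.05 without WT day 4 or 7 (exact p = 0.139) or any 1 Per1-/- library (exact p = 0.0833). The slopes in neuron-like and macrophage-like cells were -0.261 (exact p = 0.102) and 0.236 (exact p = 0.157).

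From day 7 to day 10, edgeR called 1 member higher in fibroblast-like, 3 in neuron-like and 2 in macrophage-like cells. Of all genes, 1.18%, 6.95% and 1.13% were called in either direction. Rpl13a, known for its release from the ribosome in interferon-treated myeloid cells, was at 217 to 495 CPM in the 6 fibroblast-like libraries of days 4 and 7, and at 1814 CPM in WT, 1334 CPM in Per1-/- and 2166 CPM in Per2-/- on day 10. The ranges did not overlap. Its log2 difference was 2.40 in fibroblast-like, 2.51 in neuron-like and 2.89 in macrophage-like cells. Rpl27 rose by 0.88 in neuron-like and 0.79 in macrophage-like cells, and Rpl36al by 0.71 in neuron-like cells, where it was at 250 to 309 CPM on day 7 and 399 to 474 CPM on day 10. The rises were not confined to the classes with a call. In fibroblast-like cells Rpl27 was not called, yet it was at 894 to 1062 CPM on day 7 and 1483 to 1769 CPM on day 10. Rpl36al was called in neither fibroblast-like nor macrophage-like cells, and values from clusters of both classes follow.

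The classes also sat in different clusters on day 10. The fibroblast-like cluster led by Igf2 and Clec3b held 5858 of 8497 cells of its class on day 10 and 125 of 13233 on day 7, the macrophage-like cluster led by Ctla2b and Ccl8 held 2332 of 2611 on day 10 and 0 of 3091 on day 7, and the neuron-like cluster led by Snhg11 and Stmn3 has been described. In clusters found on both days the members were higher on day 10 as well. Rpl13a was at 184 to 279 CPM on day 7 and 983 to 1330 CPM on day 10 in the neuron-like cluster led by Htr3a and Ecel1. It was at 131 to 267 and 1096 to 1682 CPM in a macrophage-like cluster with the proliferation gene Mki67 among its leading genes, and at 208 to 425 and 1282 to 2092 CPM in the fibroblast-like cluster with Tac1 and Cbln2 among its leading genes. Rpl27 was at 818 to 849 and 1350 to 1468 CPM in the Htr3a and Ecel1 cluster, and at 731 to 804 and 1209 to 1391 CPM in the Mki67 cluster. Rpl36al was at 262 to 302 CPM on day 7 and 372 to 489 CPM on day 10 in the Htr3a and Ecel1 cluster. It was at 425 to 463 and 590 to 655 CPM in the Mki67 cluster, and at 348 to 362 and 409 to 572 CPM in the Tac1 and Cbln2 cluster. These ranges did not overlap between the days, and the differences within clusters were not tested.

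Day 10 and the feature table cannot be told apart. This holds also for the clusters found nearly only on day 10, since the clustering made no correction between libraries. The libraries of days 4 and 7 were counted on a table that lists the pseudogenes Rpl13a-ps1, Rpl27-ps3, Rpl7a-ps5 and Rps12-ps3, and those of day 10 on a table that does not list them. Those pseudogenes had 533, 20039, 1197 and 14505 UMI over the 6 earlier libraries. The Rpl27-ps3 level was 11.7 to 15.7 CPM, here over all barcodes of a library. Without Rpl13a and Rpl27 the slope of the fibroblast-like core share was -0.471 points per day (exact permutation p = 0.037).

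**Figure D5:**
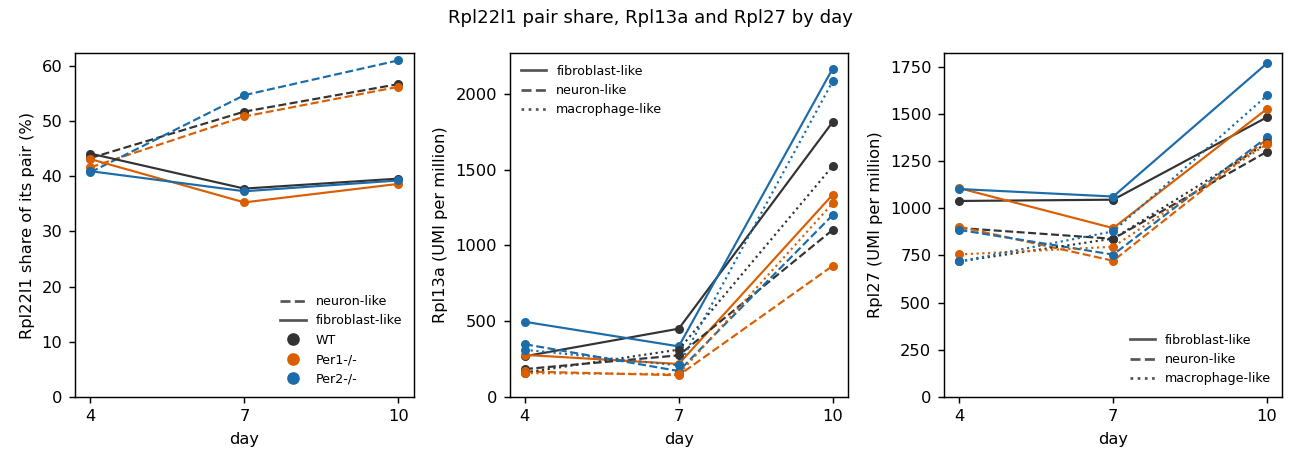
Values by day of reprogramming (x axis, day 4, 7 or 10) for each genotype in fibroblast-like (solid), neuron-like (dashed) and macrophage-like cells (dotted), with 1 library per point. Rpl13a is at 217 to 495 CPM on days 4 and 7 and 1334 to 2166 CPM on day 10 in fibroblast-like cells, and the neuron-like Rpl22l1 share goes from 40.7% to 43.3% on day 4 to 56.2% to 61.0% on day 10.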

How the data were processed

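The authors deposited filtered gene-by-barcode matrices of UMI counts, 1 per library, for which the file headers name Cell Ranger 4.0.0 (days 4 and 7) or 6.0.0 (day 10), on feature tables of 31053 and 32285 genes. The submitters' processing notes name Cell Ranger 7.1 and mm10. Counts are of molecules. The binomial intervals are of cells pooled over libraries, and cover counting error only.

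From these counts, barcodes were kept from 3000 UMI upward if no more than 20% of them were mitochondrial. The barcodes with the highest simulated-doublet score, at 0.8% per 1000 barcodes, took part in the clustering and were removed after it. Cells were clustered with Scanpy 1.11.5 and leidenalg 0.10.2 (2000 variable genes, 30 components, 15 neighbours, resolution 1) without 299 genes. These were the ribosomal protein genes and their pseudogenes, the mitochondrial ribosomal protein genes, the genes of the mitochondrial genome and the fixed lists. All libraries were clustered together with no correction for differences between them, whereas the paper integrated its libraries to remove batch effects. Clusters were named from marker lists, and 1 cluster, over 80% from WT day 10 and of low UMI, was left unnamed by a limit set after the data were seen. UMI were summed per class and library of at least 30 cells and fitted with edgeR 4.0.16 (R 4.3.3) with TMM scaling, with DESeq2 1.42.0 as an alternative. Class fits had the library as a block, and genotype and day fits had both terms. Benjamini-Hochberg adjustment was over all genes tested, with a threshold of 0.05. Shares were tested by exact permutation (scipy 1.17.1). The edgeR step was tested on simulated data for neuron-like against fibroblast-like cells, where it called 80 of 97 genes changed by a log2 of 1, 57 of 97 changed by 0.5 and 13 false ones of 14856 genes. For day 7 against day 4 in neuron-like cells it called 74 of 98 at 1, 27 of 96 at 0.5 and 11 false ones of 14529 genes. In both simulations nearly all genes were set to no difference. In the measured neuron-like against fibroblast-like contrast 39.7% of all genes were called lower and 39.8% higher. The simulations could therefore not check the scaling. Start windows came from RefSeq (GRCm38.p6) and coding sequences from GENCODE M21 (GRCm38), aligned with Biopython 1.88.

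All paralogs were named, and of the core members called in a class contrast the 4 highest and 4 lowest log2 differences for neuron-like and macrophage-like cells, the 2 highest and 2 lowest for other classes, and the 3 highest and 3 lowest in a day contrast. Members called in a genotype contrast and X-linked members were also named, as were the 2 highest and 2 lowest of other lists. Rpl22, Rpl35, and the further P-stalk or list genes given with values were chosen after their values were seen. Some genes are not reported here. The members and lists were chosen with earlier results of these data known. Alternatives covered scaling, filters, the test, doublets, depth and leaving out each library.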

Additional observations from a re-analysis of the deposited data

Results flagged for a closer look

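The neuron-like minus fibroblast-like difference of the Rpl22l1 share of its pair was of opposite sign between days. It was negative in the 3 libraries of day 4 and positive in the 3 of day 7, the means differing by 16.49 percentage points (from -0.829 to 15.7), and by 19.67 points between day 4 and day 10 (to 18.8). The difference also changed sign in skeletal muscle-like cells. There the means differed by 6.188 points between days 4 and 7 (from -1.30 to 4.89) and by 5.451 points between days 4 and 10 (to 4.15). The skeletal muscle-like share itself was 40.2% to 42.4% on day 4 and 40.8% to 42.6% on day 7. The fibroblast-like share was 40.9% to 44.1% on day 4 and 35.3% to 37.8% on day 7. These differences between days were not tested. Of the 1628 neuron-like cells of day 10, 1166 were in a cluster that held 15 of 2306 on day 7.

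Of the pseudogenes listed only in the feature table of days 4 and 7, Rpl27-ps3 had 20039 UMI over 6 libraries, Rps12-ps3 had 14505, Rpl7a-ps5 had 1197 and Rpl13a-ps1 had 533. They could not be compared with day 10. No group had 4 or more libraries of 1 genotype and day, so single libraries were not tested for standing apart from their group.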

How the results depend on the processing

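No paired analysis was possible by replicate number because the labels give none. The class tests paired classes within a library, and the genotype fits had the day as a block. The neuron-like, Schwann-like and astrocyte-like counts of core genes called lower were the same or within 1.5 times under every alternative run. The macrophage-like count of core genes called higher, 3, was 1 when scaled to UMI outside the ribosomal protein genes. The mesothelial-like count of 35 lower was 4 with DESeq2's size factors, 6 with its test, 18 with days 4 and 7 only, 59 without a filter, 22 with doublets and 8 to 37 without 1 library, and the mesothelial-like share difference was 2.109 points after thinning to 3000 UMI and -2.834 to -1.834 without 1 library.

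The Per1-/- difference in core share ranged without 1 library from -1.458 to 0.6864 points in fibroblast-like, -0.9245 to 0.4905 (0.06285 without Per1-/- day 10) in macrophage-like and -0.2823 to 0.1358 (0.1338 without Per2-/- day 10, 0.06852 without WT day 7) in neuron-like cells. The fibroblast-like slope ranged from -0.5906 to -0.2871.

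Members called lower from day 4 to 7 in neuron-like cells numbered 29 with DESeq2, 33 without a filter, 26 scaled to total UMI, 33 to UMI outside members and 2 to 35 without 1 library; in fibroblast-like cells 2 with DESeq2 and 0 to 1 without 1 library. Members called higher from day 7 to 10 numbered 2 in fibroblast-like cells with DESeq2, without a filter, with either total-UMI scaling and with the 2 chondrocyte-scored clusters added (chosen after seeing the data), and 1 to 2 without 1 library. They numbered 1 to 2 in macrophage-like cells without 1 library, and 7 with DESeq2, 5 without a filter and 3 to 8 without 1 library in neuron-like cells. The shares of all genes called under these alternatives are not given. Between Per1-/- and Per2-/-, 1 member was called lower in fibroblast-like cells by DESeq2, and without a filter 1 in macrophage-like and 2 in neuron-like cells were called; the neuron-like Per2-/- count against WT was 0 scaled to total UMI or with doublets and 0 to 1 without 1 library.

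Of pair shares, Rpl22l1 was 9.904 to 12.81 points higher in neuron-like and 2.21 to 3.118 in skeletal muscle-like cells without 1 library (2.056 with the added clusters). After thinning, the mesothelial-like differences were -0.1597 for Rpl39l and 0.1854 for Rpl7l1, and Rps27l in skeletal muscle-like cells ranged from -1.663 to -0.903. Of named genes, Rpl36al in Schwann-like cells was 0.07423 scaled to total UMI, and Rpl39l in skeletal muscle-like cells was -0.01118 without a filter and -0.08752 to 0.18 without 1 library (-0.02802 without Per2-/- day 7, -0.005047 without WT day 10). Where no cause is given, the cause was not tested. Over 74 named results, 1104 of 1233 comparisons kept direction and side of the threshold, 83 lost the threshold, 41 gained it and 5 turned. The depth of WT day 10 and 1 library per genotype and day limit what could be seen.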
